A study of Mus musculus with 9 samples.

Results

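Described here are 9 genes of cysteine protease control in mouse prostate lesions: the inhibitors Ctla2a, Ctla2b and Cst3 and the cysteine cathepsins Ctsl, Ctsb, Ctsh, Ctsk, Ctss and Ctsz. They were chosen by name from 22180 genes, with the large difference of Ctla2a between tumours and high-grade prostatic intraepithelial neoplasia (HG-PIN, dysplastic cells within the gland) already known. Each gene was read on the probe set annotated with exactly that 1 symbol and brightest by mean over the arrays, and all 9 were among the 16635 genes that passed the filter on low signal. There were 3 arrays in each of 3 groups, all from epithelium that was laser-captured from fixed prostates of male mice aged 12 months on a mixed strain background. The tumour group held solid tumours, described in the design as poorly differentiated adenocarcinomas, of PbCre;T-3Mb-Erg/+;PtenL/L mice. The T-3Mb-Erg HG-PIN group came from the same 3 mice, and the control HG-PIN group from 3 PbCre;PtenL/L mice, so that 6 mice were represented. All groups thus shared the PbCre transgene, which drives Cre recombinase from the probasin promoter in prostate epithelium, and the loxP-flanked PtenL/L alleles, and the control lesions are not normal tissue. The T-3Mb-Erg allele, present on 1 chromosome, models the joining of Tmprss2 to Erg by loss of the segment between them. Tumours of mice without that allele were not analysed here, so that tumour and genotype cannot be told apart in the comparison of tumours with control HG-PIN.

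Cysteine cathepsins are proteases of the lysosome that are made as inactive precursors, in which a propeptide covers the active site until it is cleaved off in the acidic compartment. Some are also secreted, and then cut matrix proteins such as collagen and elastin. Cystatins hold secreted and leaked enzyme in check, and the mouse proteins CTLA2A and CTLA2B resemble the propeptide of cathepsin L and can act as inhibitors of that enzyme. The Ctla2 genes were first found in activated T cells and mast cells of the mouse.

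Ctla2a, Ctla2b and Ctsl all lie on chromosome 13, and the Ctla2 genes neighbour a cluster of cathepsin genes expressed in the placenta. The 250 bases before an annotated transcript start of Ctla2a and Ctla2b are shown because the Ctla2 genes are close copies whose array signals went apart. The sequences are from RefSeq (GRCm38.p6, minus strand, written 5′ to 3′), from chr13:60936626-60936875 for Ctla2a (the outer of 2 annotated starts) and chr13:60897448-60897697 for Ctla2b. The Ctla2a window lies outside the annotated span of its gene. The Ctla2b window lies inside the span of its gene, which reaches further 5′. The Ctsl window in the same table also lies inside its gene and is not shown. Capitals mark every match to the motifs searched, which were chosen after these sequences were seen.
Ctla2a: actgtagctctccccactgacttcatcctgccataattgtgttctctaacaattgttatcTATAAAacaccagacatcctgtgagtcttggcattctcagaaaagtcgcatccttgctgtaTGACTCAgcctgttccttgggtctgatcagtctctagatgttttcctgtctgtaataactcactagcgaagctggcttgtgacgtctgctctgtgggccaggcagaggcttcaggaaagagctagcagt
Ctla2b: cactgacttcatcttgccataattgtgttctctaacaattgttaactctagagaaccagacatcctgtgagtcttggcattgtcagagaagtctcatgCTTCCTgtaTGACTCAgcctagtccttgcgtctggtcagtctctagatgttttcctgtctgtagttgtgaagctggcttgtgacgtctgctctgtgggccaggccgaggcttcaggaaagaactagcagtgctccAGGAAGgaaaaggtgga

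Over 236 aligned positions, 208 were identical between the Ctla2a and Ctla2b windows (88.1%). Both carried TGACTCA, the letters of an AP-1 site, which was found on either strand in 4.46% of the same windows of 32851 promoters. The letters of a TATA box (TATAAA) stood in the Ctla2a window, 190 bases before the annotated start, and not in that of Ctla2b (12.4% of all promoters). The Ctla2b window had AGGAAG, a core of sites for ETS factors, once on each strand. Of all promoters, 29.5% had it on either strand. The Ctla2a gene has the same letters once from base 6 after its start, just past the window shown. That is as far past the shared letters ctagcagt as AGGAAG in Ctla2b, so this part of the contrast depends on where the windows end. The lysosomal motif CACGTG (6.02% of all promoters) and the cAMP response element (TGACGTCA, 1.55%) were in neither window. Among the other members with a sequence, Ctsl had CACGTG once, in a window that lies inside its gene. Ctsk had AGGAAG once on each strand and Cst3 had AGGAAG once. Ctss had the TATA box letters once on the reverse strand, and Ctsz had none of the 5 motifs. A match of letters is a description and not a binding site. With copies this close, signal of one Ctla2 transcript on the probe set of the other was not tested, since the probe sequences were not used here.

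Signals are given as log2 of the deposited intensity. A background gauge of 4.80 was taken from 1394 olfactory and vomeronasal receptor genes, 95% of which had a lower mean over the 9 arrays; levels under it are near background. On this gauge 7 of the 9 members had a mean above background, and Ctla2b (3.29) and Ctsk (3.94) did not. Ctla2b passed the low-signal limit of 3.25 through a single tumour array. The 95th percentile of log2 signal over all probe sets lay between 6.15 and 6.65 on tumour arrays, 6.26 and 6.61 on T-3Mb-Erg HG-PIN arrays and 6.16 and 6.49 on control HG-PIN arrays. As a check of the labels, Erg averaged 4.52 ± 0.32 in tumours, 3.96 ± 0.32 in T-3Mb-Erg HG-PIN lesions and 3.88 ± 0.29 in control HG-PIN, all under the gauge, and Tmprss2 averaged 4.74 ± 0.35, 6.50 ± 0.16 and 5.97 ± 0.89 in the same order (SD, n = 3 each). Ets2, in the segment between them, averaged 4.83 ± 1.08, 5.26 ± 0.43 and 5.40 ± 0.46 in that order. None of the 3 passed the test between the HG-PIN groups (limma adjusted p = 0.998 for each). The luminal epithelial markers, 10 genes that include the keratins Krt8, Krt18 and Krt19, summed to between 259 and 393 intensity units in tumours, 1314 and 1799 in T-3Mb-Erg HG-PIN lesions and 537 and 3109 in control HG-PIN. Between tumours and T-3Mb-Erg HG-PIN, 7 of the 10 fell by limma, and 2 of the 10 fell between tumours and control HG-PIN. Of all tested genes, 0.283% and 0.180% were called in these comparisons in either direction. The defining markers of the labelled epithelium were thus low on all 3 tumour arrays. They were also low, at 537, on control HG-PIN replicate 2. In captured tissue, fewer cells of a type and less RNA per cell cannot be told apart.

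Tumour replicate 3 and control HG-PIN replicate 2 stood apart from the rest for these genes. Tumour replicate 3 was the highest of the 9 arrays for Ctsl, Ctsb, Ctsk, Ctss and Ctsz, while it was the highest for 15.9% of all tested genes. It was the highest for Ctla2b too, but Ctla2b passed the low-signal limit through that array alone. Control HG-PIN replicate 2 was the lowest array for Ctsb, Ctsk, Ctss and Ctsz, and the lowest for 12.5% of all tested genes. It was the lowest for Ctla2a and Ctla2b too, but their place here rests on their tumour signal. The mean of the 6 cathepsins was 5.49, 5.12 and 6.82 in tumours 1 to 3, against 5.59, 5.46 and 5.16 in T-3Mb-Erg HG-PIN lesions and 5.43, 4.58 and 5.17 in control HG-PIN.

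Among the inhibitors, Ctla2a stood out in tumours. It had log2 signals of 10.17, 9.59 and 10.03 in tumours, against 5.25, 6.70 and 5.12 in T-3Mb-Erg HG-PIN lesions and 5.01, 2.31 and 4.10 in control HG-PIN. In intensity units these are 1148, 772 and 1045 in tumours, 38.1, 104 and 34.7 in T-3Mb-Erg HG-PIN lesions and 32.2, 4.96 and 17.2 in control HG-PIN. Every tumour array lay far above every HG-PIN array, and the tumours were close to one another (9.93 ± 0.30, SD, n = 3) while the HG-PIN arrays were more spread (5.69 ± 0.88 in T-3Mb-Erg HG-PIN lesions and 3.81 ± 1.37 in control HG-PIN, n = 3 each). The order of the group means was tumour, T-3Mb-Erg HG-PIN, control HG-PIN. The difference between tumours and T-3Mb-Erg HG-PIN was 4.24 on the log2 scale (18.9-fold, SE 0.64), the second largest positive one of all 16635 genes. Against control HG-PIN the fitted difference was 6.12 (SE 0.63). Because Ctla2a was listed for its tumour signal, these differences are descriptions and nothing is read from any test of them. The control HG-PIN mean lies below the background gauge, so that the size of the second difference depends on how low signals are treated and no rank is given for it. With 16 units added before the log it was 4.94.

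**Figure D1:**
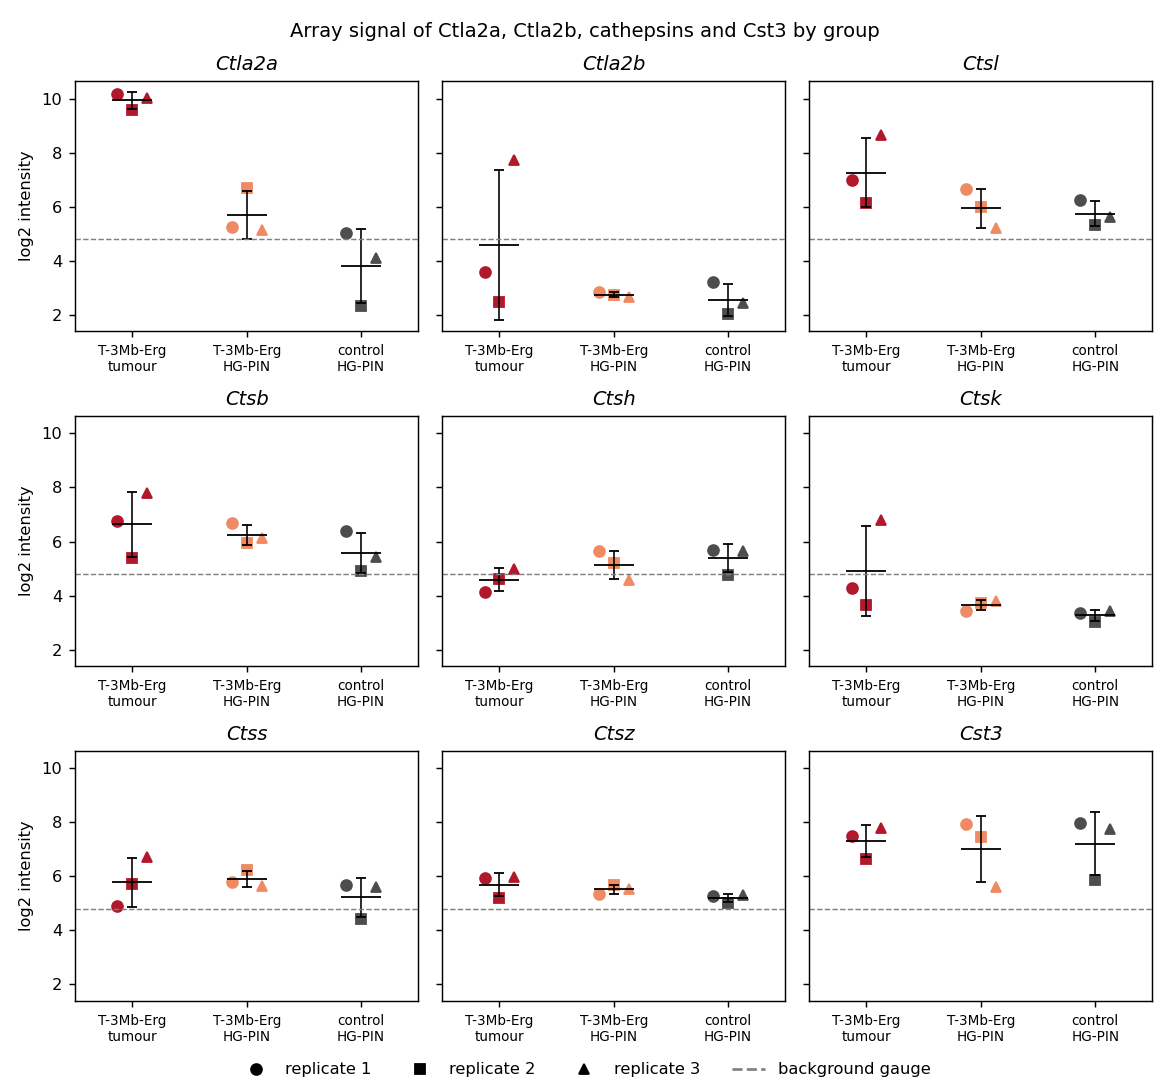
Log2 array intensity (vertical axis) of each of the 9 genes in T-3Mb-Erg tumours, T-3Mb-Erg HG-PIN and control HG-PIN (horizontal axis), with symbols for replicates 1 to 3, black bars for the mean ± SD (n = 3) and a dashed line at the background gauge of 4.80. Ctla2a is above 9 in all 3 tumours and below 7 on all HG-PIN arrays, while for Ctla2b, Ctsl and Ctsk tumour replicate 3 lies above the other tumours.

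Within mice, the tumour minus HG-PIN difference of Ctla2a was 4.91, 2.89 and 4.91 in the mice of replicates 1, 2 and 3. The mouse with the smallest difference was the one whose HG-PIN had the highest Ctla2a. Without tumour replicate 3 the fitted difference was 4.10, and leaving out any other tumour or T-3Mb-Erg HG-PIN array gave values between 3.94 and 4.71. Control HG-PIN arrays do not enter this difference.

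Ctla2b, the close copy, had 3.57, 2.46 and 7.73 in tumours, against 2.84, 2.72 and 2.67 in T-3Mb-Erg HG-PIN lesions and 3.19, 2.02 and 2.44 in control HG-PIN. Only tumour replicate 3 was above the background gauge, and tumour replicate 2 lay below all T-3Mb-Erg HG-PIN arrays. The difference between the means of tumours and T-3Mb-Erg HG-PIN was 1.85, and 0.27 without tumour replicate 3. Both HG-PIN means are under the low-signal limit, so that Ctla2b entered the fit through the tumours alone and no test of its tumour differences is given. In the 3 mice it was 0.74, -0.26 and 5.07, and in the first 2 mice both levels were near background, whereas Ctla2a differed by 4.91 and 2.89 there.

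Cst3, which encodes the secreted inhibitor cystatin C, had 7.51, 6.63 and 7.77 in tumours, against 7.94, 7.47 and 5.61 in T-3Mb-Erg HG-PIN lesions and 7.99, 5.87 and 7.77 in control HG-PIN. The groups overlapped, with the lowest values on HG-PIN arrays of both genotypes. Its difference between tumours and T-3Mb-Erg HG-PIN was 0.30 (95% interval -1.21 to 1.82, limma adjusted p = 0.995), which leaves changes of more than 2-fold in either direction within the interval. Without tumour replicate 3 it was -0.14. A second Cst3 probe set gave 6.68 ± 0.26 in tumours, 6.16 ± 0.77 in T-3Mb-Erg HG-PIN lesions and 6.56 ± 0.56 in control HG-PIN (SD, n = 3 each), again with overlapping groups. The within-mouse differences were -0.43, -0.83 and 2.16, so Cst3 was lower in the tumours of 2 mice and higher in the third.

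**Figure D2:**
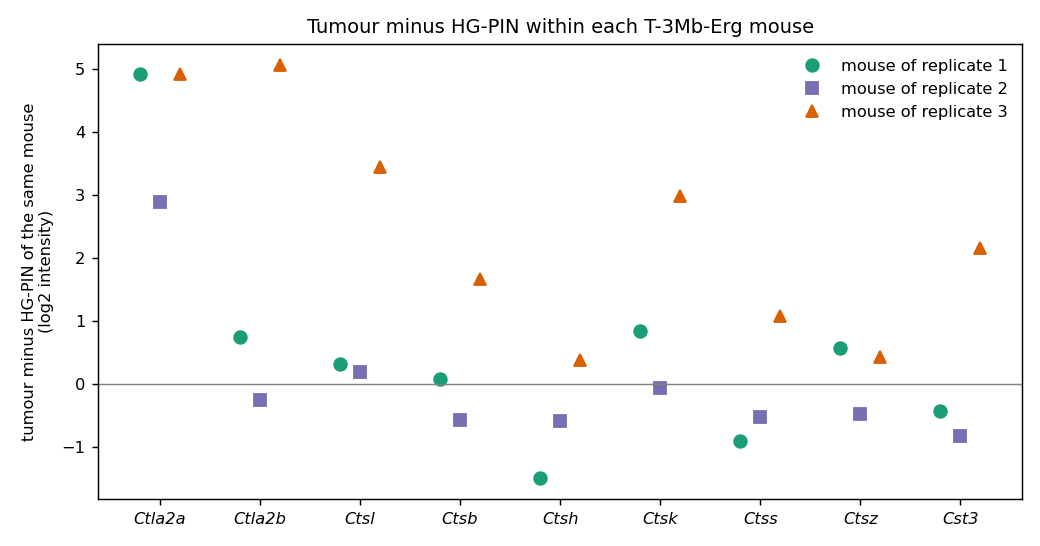
Difference between the tumour and the HG-PIN array of 1 mouse (vertical axis, log2 intensity) for each of the 9 genes (horizontal axis), with a symbol for each of the 3 mice. Ctla2a is between 2.89 and 4.91 in all mice, while the other genes lie between -1.50 and 0.84 in the mice of replicates 1 and 2, and all 9 are above 0 in the mouse of replicate 3.

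Cathepsins L and B are the broadly expressed endopeptidases of the lysosome. Ctsl had 6.97, 6.15 and 8.65 in tumours, against 6.66, 5.97 and 5.21 in T-3Mb-Erg HG-PIN lesions and 6.25, 5.34 and 5.63 in control HG-PIN. Tumour replicate 3 was the highest array and its HG-PIN partner the lowest of all 9, and the groups overlapped. The difference between tumours and T-3Mb-Erg HG-PIN was 1.31 (SE 0.59, 95% interval 0.01 to 2.61, limma adjusted p = 0.650), and 0.51 without tumour replicate 3. Ctsl was higher in the tumour in 3 of 3 mice, by 0.31, 0.18 and 3.44, and the same holds for 11.5% of all tested genes.

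Ctsb had 6.75, 5.39 and 7.79 in tumours, against 6.67, 5.95 and 6.13 in T-3Mb-Erg HG-PIN lesions and 6.37, 4.92 and 5.42 in control HG-PIN. The tumours spread on both sides of the T-3Mb-Erg HG-PIN arrays. The difference between tumours and T-3Mb-Erg HG-PIN was 0.39 (95% interval -0.86 to 1.64, limma adjusted p = 0.987), and it was -0.20 without tumour replicate 3.

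Cathepsin K, the collagen-cleaving enzyme best known from osteoclasts, had Ctsk signals of 4.29, 3.66 and 6.78 in tumours, against 3.44, 3.73 and 3.80 in T-3Mb-Erg HG-PIN lesions and 3.36, 3.03 and 3.42 in control HG-PIN. Tumour replicate 3 was the only array above the background gauge. The difference between tumours and T-3Mb-Erg HG-PIN was 1.25 (95% interval -0.05 to 2.55, limma adjusted p = 0.685), and 0.34 without that array. Of the osteoclast markers, Oscar, Calcr, Dcstamp, Ocstamp and Atp6v0d2 were near background on all 9 arrays, which leaves 1 of 6, Acp5, above it on any array.

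Ctsh, an aminopeptidase, had 4.14, 4.62 and 4.98 in tumours, against 5.63, 5.21 and 4.59 in T-3Mb-Erg HG-PIN lesions and 5.68, 4.77 and 5.66 in control HG-PIN. Of the 6 cathepsin members it was the only one with a lower mean in tumours than in both HG-PIN groups. Outside the members, Ctsd, Ctse and Ctsw also had lower means in tumours than in both HG-PIN groups. The difference of Ctsh from T-3Mb-Erg HG-PIN was -0.56 (95% interval -1.35 to 0.22, limma adjusted p = 0.835), and -0.84 without tumour replicate 3. Ctss, the cathepsin of antigen-presenting cells that processes the invariant chain of MHC class II, had 4.90, 5.71 and 6.73 in tumours, against 5.80, 6.24 and 5.66 in T-3Mb-Erg HG-PIN lesions and 5.66, 4.41 and 5.60 in control HG-PIN. Its difference from T-3Mb-Erg HG-PIN was -0.12 (95% interval -1.16 to 0.92, limma adjusted p = 0.998), and -0.63 without tumour replicate 3. Ctsz, a carboxypeptidase, was the steadiest member, with 5.92, 5.21 and 5.96 in tumours, 5.35, 5.68 and 5.54 in T-3Mb-Erg HG-PIN lesions and 5.26, 5.03 and 5.30 in control HG-PIN. Its interval of -0.46 to 0.80 around a difference of 0.17 (limma adjusted p = 0.992) was the narrowest of the set and excludes a 2-fold difference in the main fit. With each mouse as a replicate block the SE was 0.37, against 0.29, so the exclusion is stated for the main fit only. For all 3 genes the tumour and T-3Mb-Erg HG-PIN arrays overlapped.

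Counted without the Ctla2 genes, limma called 0 of the other 7 members between tumours and T-3Mb-Erg HG-PIN, while 0.283% of all tested genes were called in either direction and 0.0661% as higher. At an unadjusted p under 0.05 there was 1 of the 7, Ctsl, beside 7.65% of all tested genes. Ctla2a, chosen for this difference, was the only member whose groups did not overlap, as was the case for 11.4% of all tested genes in either direction and for 4.97% with tumours higher. The median difference of the 6 cathepsins was 0.28, beside -0.01 for all tested genes, and 4 of the 6 were positive, beside 48.9% of all tested genes. Without tumour replicate 3 the median was -0.08 and 3 of the 6 were positive. By mouse, 4, 1 and 6 of the 6 cathepsins were higher in the tumours of replicates 1, 2 and 3, with medians of 0.20, -0.50 and 1.37, while the medians of all tested genes were 0.00, 0.02 and -0.08. In the mouse of replicate 3 the 6 cathepsins and Cst3 were all higher in the tumour, beside 44.5% of all tested genes. The Ctla2 genes were higher there too, but their place here rests on their tumour signal.

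**Figure D3:**
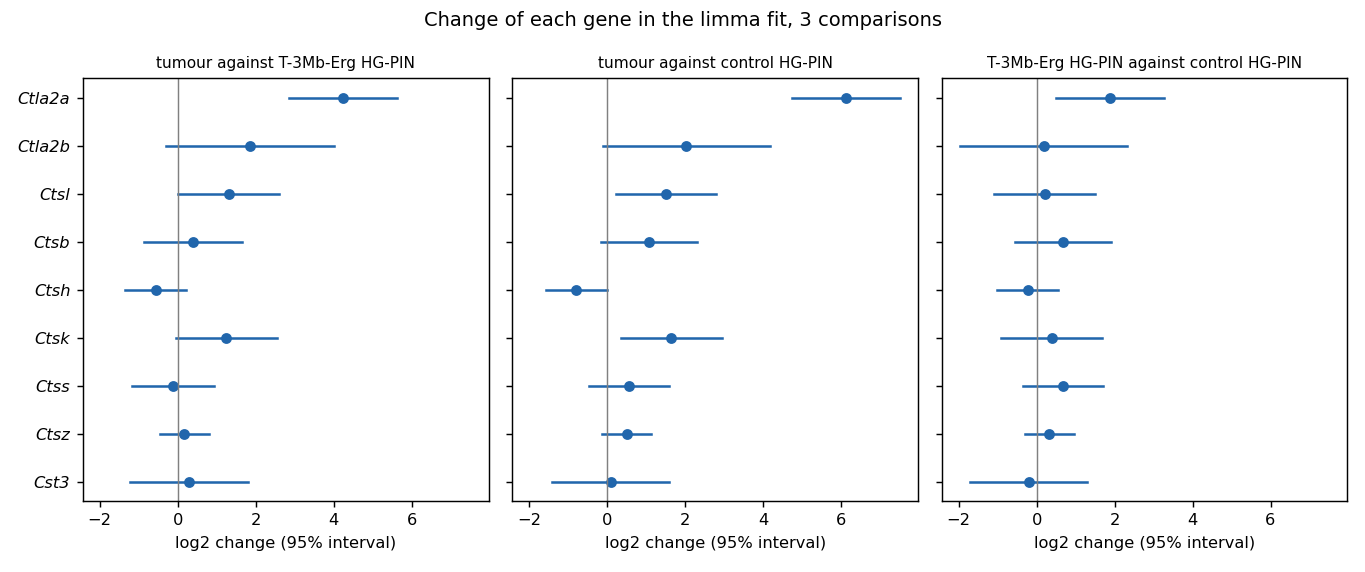
Fitted log2 change (point) with its 95% interval (line) of each of the 9 genes, in panels for tumours against T-3Mb-Erg HG-PIN, tumours against control HG-PIN and T-3Mb-Erg HG-PIN against control HG-PIN. Ctla2a at 4.24 and 6.12 lies apart from the other genes in the first 2 panels, while the intervals of Ctsb, Ctss, Ctsz and Cst3 include 0 in every panel.

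Control HG-PIN came from 3 mice that lack the T-3Mb-Erg allele. Against it, tumours were higher in the mean for 6 of the 7 members besides the Ctla2 genes. The same held for 46.3% of all tested genes. Without tumour replicate 3 the members higher were 5 of the 7, and Cst3 differed by -0.34. This comparison shares its tumour arrays with that against T-3Mb-Erg HG-PIN and its control arrays with the comparison of the HG-PIN groups. Of the 7 members besides the Ctla2 genes limma called 0, where 0.180% of all tested genes were called in either direction and 0.108% as higher. At an unadjusted p under 0.05 there were 3 of the 7, Ctsl, Ctsh and Ctsk, beside 9.32% of all tested genes. Ctsk differed by 1.64 (95% interval 0.35 to 2.93, limma adjusted p = 0.363), Ctsl by 1.52 (0.23 to 2.80, adjusted p = 0.418) and Ctsb by 1.07 (-0.16 to 2.31, adjusted p = 0.622). Without tumour replicate 3 these became 0.73, 0.71 and 0.48, and the median of the 6 cathepsins was 0.43, beside 0.82 with it. The means of Ctla2b differed by 2.03, and by 0.45 without that array. Ctsh differed by -0.79 (-1.57 to -0.01, limma adjusted p = 0.529). Weighting the arrays by their quality gave -1.22 for Ctsh (limma adjusted p = 0.0260), the 1 fit in which any of these 7 passed. That fit called 938 of all 16635 tested genes in this comparison, 515 higher and 423 lower. The tumour and control HG-PIN arrays did not overlap for Ctla2a and Ctsk, and for 13.7% of all tested genes (6.20% with tumours higher).

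The comparison of HG-PIN lesions between the genotypes asks what the T-3Mb-Erg allele goes with at the same lesion. No member passed: limma called 0 of 9, and 0% of all tested genes, while at an unadjusted p under 0.05 it gave 1 member, Ctla2a, and 4.10% of all tested genes. Ctla2a differed by 1.88 (3.69-fold, SE 0.63, 95% interval 0.50 to 3.26, limma adjusted p = 0.998). Its control HG-PIN mean lies below the background gauge, so no rank is given here either. Its T-3Mb-Erg HG-PIN arrays all lay above the control HG-PIN arrays, with the nearest values at 5.12 in T-3Mb-Erg HG-PIN replicate 3 and 5.01 in control HG-PIN replicate 1. Control HG-PIN replicate 2, at 2.31, carried part of the gap, which was 1.13 without it. With 16 units added before the log the difference was 1.10. The groups also did not overlap for Ctsk, at 3.66 ± 0.19 in T-3Mb-Erg HG-PIN lesions and 3.27 ± 0.21 in control HG-PIN, both near background, and for Ctsz, at 5.52 ± 0.17 in T-3Mb-Erg HG-PIN lesions and 5.19 ± 0.15 in control HG-PIN (SD, n = 3 each). Those 3 members of 9 stand beside 10.1% of all tested genes without overlap (4.86% with T-3Mb-Erg HG-PIN higher). The differences of the other members ran from -0.23 for Ctsh to 0.68 for Ctsb and Ctss (adjusted p = 0.998 for each), and the 95% intervals of the 9 members had half-widths between 0.63 for Ctsz and 2.14 for Ctla2b. These widths use a spread shared by all 9 arrays, tumours included, and do not measure the HG-PIN lesions alone. On the 6 HG-PIN arrays the SE of Ctla2b was 0.32, against 0.98 in the main fit, and that of Cst3 was 0.71, against 0.69.

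The wider families were described from lists that were set with earlier results of these data known. Of 10 other cathepsins and lysosomal peptidases, limma called 0 in any of the 3 comparisons, and the median difference between tumours and T-3Mb-Erg HG-PIN was 0.17. Ctso, a little-studied cysteine cathepsin, averaged 4.80 ± 0.15 in tumours, just under the gauge, and 4.07 ± 0.12 in T-3Mb-Erg HG-PIN (SD, n = 3 each), a difference of 0.73 (adjusted p = 0.291). Ctsw, the cathepsin of cytotoxic lymphocytes, averaged 3.95 ± 0.44 in tumours and 4.68 ± 0.22 in T-3Mb-Erg HG-PIN, both under the gauge (adjusted p = 0.408). These groups did not overlap for 3 of the 10, beside 11.4% of all tested genes in either direction. Ctso was higher in tumours, while Ctsw (-0.73) and Ctse (-1.72) were lower. All 8 placental cathepsins, the chromosome 13 neighbours of the Ctla2 genes, were below the low-signal limit and were not tested.

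Of 19 other cystatins and related inhibitors with a probe set, 8 passed the low-signal filter and limma called 0. The smallest p values were those of Kng1, whose product kininogen carries cystatin domains, and Stfa2l1, of the stefin family. Kng1 averaged 4.86 ± 0.86 in tumours, 2.85 ± 0.24 in T-3Mb-Erg HG-PIN lesions and 3.05 ± 0.29 in control HG-PIN, and Stfa2l1 3.06 ± 0.30, 3.72 ± 0.37 and 3.00 ± 0.60 in the same order (SD, n = 3 each). Each was above the low-signal limit of 3.25 in 1 group alone, so that it passed the filter through the group where it is high, and nothing is read from its test. Of 36 lysosomal hydrolases and membrane proteins tested, limma called 0, with 22 positive and a median of 0.10 between tumours and T-3Mb-Erg HG-PIN. In that comparison 48.9% of all tested genes were positive. Npc2, the cholesterol carrier of the lysosome, averaged 7.01 ± 0.70 in tumours and 5.54 ± 0.27 in T-3Mb-Erg HG-PIN (difference 1.47, adjusted p = 0.251). Laptm4b, a lysosomal membrane protein, averaged 6.62 ± 0.75 in tumours and 5.08 ± 1.16 in T-3Mb-Erg HG-PIN (difference 1.53, adjusted p = 0.480).

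Of 8 genes of lysosome sorting and transcription, limma called 0 and the median was 0.08. Mitf, a transcription factor of the TFEB family, differed by 1.42 between tumours and T-3Mb-Erg HG-PIN (SE 0.36, adjusted p = 0.189). Sort1, a sorting receptor for lysosomal proteins, averaged 4.33 ± 0.22 in tumours and 5.60 ± 0.92 in T-3Mb-Erg HG-PIN (difference -1.27, adjusted p = 0.440). Among 13 matrix genes whose products cathepsins are known to cleave, or that are held in the matrix, 12 were positive with a median of 0.77, and limma called 0. Of all tested genes, 48.9% were positive between tumours and T-3Mb-Erg HG-PIN. Only 6 of the 13 had a mean above the background gauge. Nid1, of the basement membrane, differed by 1.39 and the collagen gene Col1a1 by 1.68 (adjusted p = 0.291 and 0.294). The 0 calls in these lists stand beside 0.283% of all tested genes called in this comparison.

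Summed markers of other cell types were higher on some tumour arrays. The 12 fibroblast markers summed to 1596, 536 and 3600 intensity units in tumours, against 540, 701 and 301 in T-3Mb-Erg HG-PIN lesions and 259, 243 and 266 in control HG-PIN; Fap and Fbln1 were near background on all 9 arrays. Of the 11 tested, all 11 were positive between tumours and T-3Mb-Erg HG-PIN with a median of 1.38, and limma called 0. In that comparison 48.9% of all tested genes were positive. A mean above the background gauge was found for 6 of the 11. Tumour replicate 3 had the highest sum, and it also had the highest signals of Ctsl, Ctsb, Ctsk, Ctss and Ctsz. The part of fibroblasts in the signals of the members, Ctla2a included, was not tested. Tumour replicate 2 had a lower sum than T-3Mb-Erg HG-PIN replicates 1 and 2.

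The 12 endothelial markers summed to 234, 217 and 468 in tumours, against 168, 200 and 198 in T-3Mb-Erg HG-PIN lesions and 156, 194 and 159 in control HG-PIN. The tumours were above all HG-PIN arrays, although 8 of the 12 (Kdr, Tek, Tie1, Vwf, Cldn5, Esam, Eng and Egfl7) were near background on every array. Of the 10 tested, 9 were positive between tumours and T-3Mb-Erg HG-PIN with a median of 0.29, beside 48.9% of all tested genes, and limma called 0. The part of endothelial cells in the Ctla2a signal was not tested. The 19 macrophage markers summed to 453, 421 and 833 in tumours, 651, 452 and 462 in T-3Mb-Erg HG-PIN lesions and 444, 407 and 474 in control HG-PIN, with Fcgr1, Mrc1, Cd163, Itgam, Msr1, Mertk and Laptm5 near background throughout. Their sum was highest in tumour replicate 3, where Ctss was highest too. Of the 17 tested, 7 were positive and 10 negative between tumours and T-3Mb-Erg HG-PIN, with a median of -0.02. Limma called 1 of the 17, Cd14, which was lower in tumours (-1.73, limma adjusted p = 0.0409), beside 0.283% of all tested genes in either direction.

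For the cells in which the Ctla2 genes were first found, the data hold little signal. All 9 mast cell markers, Kit, Cpa3, Mcpt4, Tpsb2, Tpsab1, Cma1, Fcer1a, Ms4a2 and Hdc, were near background on every array, and their sum ran from 65.1 to 95.6 in tumours, 74.0 to 84.5 in T-3Mb-Erg HG-PIN lesions and 64.9 to 80.8 in control HG-PIN. Of 12 T and NK cell markers, 9 (Cd3d, Cd3e, Cd3g, Cd2, Cd5, Cd4, Gzma, Gzmb and Il2rb) were near background on every array, and the sum of the 12 ran from 191 to 243 in tumours, 195 to 242 in T-3Mb-Erg HG-PIN lesions and 206 to 265 in control HG-PIN. The ranges of the 3 groups overlapped for both lists, and the part of these cells in the Ctla2a signal was not tested. The 4 basal epithelial markers summed to between 95.5 and 130 in tumours and 520 and 610 in T-3Mb-Erg HG-PIN lesions. In control HG-PIN they summed to between 147 and 249. Limma called 1 of the 4 as lower in tumours than in T-3Mb-Erg HG-PIN, beside 0.283% of all tested genes in either direction. The 9 smooth muscle markers summed to between 206 and 657 in tumours and 275 and 1422 in T-3Mb-Erg HG-PIN lesions. In control HG-PIN their sum lay between 227 and 293.

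**Figure D4:**
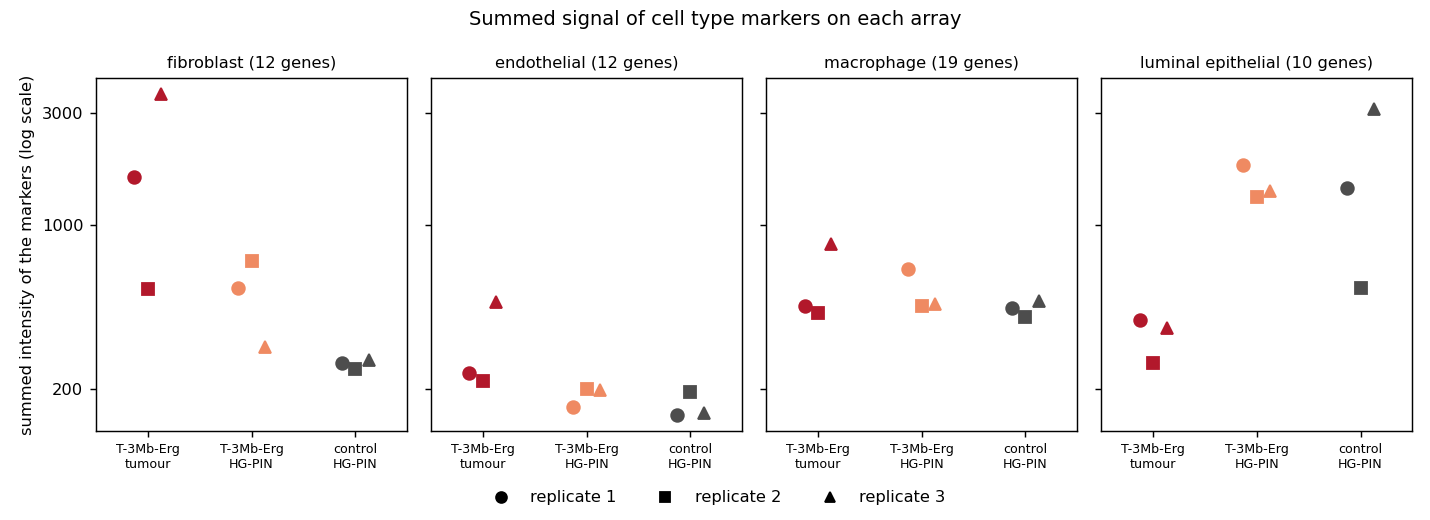
Summed intensity (vertical axis, log scale) of fibroblast, endothelial, macrophage and luminal epithelial markers on each array, by group (horizontal axis) and replicate (symbols). The fibroblast sum of tumour replicate 3 is 3600 and that of tumour replicate 2 is 536, and the luminal sums of tumours, from 259 to 393, are below all others.

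Genes whose signal followed that of a member most closely were taken by Pearson's r over the 9 arrays, as a description of arrays that share mice and groups. The 4204 candidates were the tested genes with a mean above the gauge, without predicted gene models, clone names ending in Rik, microRNAs and small nucleolar RNAs. For Ctla2a these were Serping1, the complement inhibitor (r = 0.95), Prrx1, a homeobox factor of mesenchyme (0.94), Bcam, a laminin receptor (0.94), Lgals1, a galectin (0.93), and Map4, a microtubule-binding protein (0.93). Serping1 averaged 8.26 in tumours, 5.34 in T-3Mb-Erg HG-PIN lesions and 4.51 in control HG-PIN, which is the order of Ctla2a. For Ctla2b they were Cxcl14, Ppp6r1, Col6a1, Xdh and Tns3 (r = 0.95 to 0.96), and for Ctsk Tns3, Col6a1, Xdh, Lsp1 and Fstl1 (0.96 to 0.98). Of these, Col6a1, Xdh and Tns3 stood on both lists. Without tumour replicate 3, a setting chosen after seeing the data, r was 0.91 to 0.94 for the 5 genes of Ctla2a, 0.73 to 0.95 for those of Ctsk and 0.12 to 0.78 for those of Ctla2b.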

How the data were processed

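Laser-captured lesions of 9 samples were hybridised to Affymetrix Mouse Gene 2.0 ST arrays after extraction with a kit for fixed tissue and NuGEN Ovation V2 amplification, per the labels' protocols. The authors deposited 1 linear intensity per probe set and array, for 41345 probe sets, ranging from 1.36 to 13922, with array medians from 13.6 to 15.4. How the authors corrected background, summarised probes and normalized arrays is not given in the sources used here. Fixation breaks RNA, and amplification adds noise, which can widen the spread between arrays, and 3 arrays per group limit the precision.

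Values were log2-transformed without a pseudocount. Of the probe sets, 23521 had exactly 1 symbol in the platform annotation, 1814 several and 16010 none; names were updated through Entrez identifiers with RefSeq GRCm38.p6 (23328 matched). The brightest probe set stood for each of 22180 genes, and the lowest 25% by mean (below 3.25) were removed. Groups were compared with limma 3.58.1 in R 4.3.3 over all 9 arrays, with the mouse as a random block (consensus correlation -0.01), trended empirical Bayes variances and Benjamini-Hochberg adjustment over 16635 genes; genes under 0.05 are called. The labels' mouse identifiers pair tumour and HG-PIN arrays; same-mouse deviations correlated at 0.17, 0.10 and -0.30. The fit was tested on simulated data. Settings tried were the scaling, a pseudocount, the filter, the arrays in the fit, the block, array weights, the array's signal range, the probe set choice and each array left out. Promoters and motifs were handled with Python 3.11.15 and Biopython 1.88.

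The labels name a mouse for each array, and p-values measure the spread between these few mice. The members, the lists and the settings were chosen with earlier results of these data known. All 9 members are named, and alike genes are the 5 highest correlations. From each gene list called genes are named, at most 4 in each direction, or else the 2 of smallest p. Called genes of the marker lists are counted and not all named.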

Additional observations from a re-analysis of the deposited data

How the results depend on the processing

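The number of members called between tumours and T-3Mb-Erg HG-PIN was 1 under all 10 other settings, and 0 to 1 without single arrays. That 1 is Ctla2a, which the list was chosen for, so nothing is read from it; it was 0 without control HG-PIN replicate 3, tumour replicate 1, or either HG-PIN array of T-3Mb-Erg replicates 1 and 2. Between the HG-PIN groups it was 0 in every fit. Between tumours and control HG-PIN it was 1 (again Ctla2a), 2 with array weights and 0 to 1 without single arrays (0 without control HG-PIN replicate 3). In the paired fit, with each mouse as a replicate block, no member besides Ctla2a was called, while the calls over all genes went to 26 (1 higher, 25 lower). The differences in that fit, such as 4.24 for Ctla2a, equal those of the group means by design, and only their SE could move. Changing the filter or the block, or fitting only the 6 arrays compared, leaves a fitted difference as it was. Many member values under other settings therefore could not change sign, and their count is no measure of stability. Of 243 member values under other settings 4 changed sign. With array weights, Ctss (-0.17) and Cst3 (-0.13) did so between tumours and control HG-PIN, where Ctsh passed at -1.22. With the array range as a term, Cst3 in that comparison (-0.16) and Ctla2b between the HG-PIN groups (-0.036) did so. Leaving out single arrays turned 14 of 243 values. An array outside a comparison leaves its differences as they were, so part of the 243 could not turn. In tumours against T-3Mb-Erg HG-PIN, Ctss ran from -0.63 to 0.33, Ctsb from -0.20 to 1.05 and Cst3 from -0.46 to 0.78. Between the HG-PIN groups, Cst3 ran from -0.88 to 0.56, Ctla2b from -0.077 to 0.69, Ctsl from -0.13 to 0.78 and Ctsh from -0.53 to 0.10. In tumours against control HG-PIN, Cst3 ran from -0.58 to 0.49. The cause of these changes was not tested.

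Calls over all genes moved more. Between tumours and T-3Mb-Erg HG-PIN, 47 genes (11 higher, 36 lower) became 84 after quantile normalization (30 higher, 54 lower), 18 with 16 units added (7 higher, 11 lower), 194 with the range term (66 higher, 128 lower) and 405 with array weights (226 higher, 179 lower), and 0 (without tumour replicate 1) to 110 (without tumour replicate 2) with single arrays left out. Between tumours and control HG-PIN, 30 became 88 after quantile normalization (48 higher, 40 lower), 8 with 16 units added (all higher), 47 above the background gauge (25 higher, 22 lower), 7 on the 6 arrays compared (6 higher, 1 lower), 196 with the range term (106 higher, 90 lower) and 938 with array weights (515 higher, 423 lower), and 0 (without control HG-PIN replicate 3) to 261 (without tumour replicate 2) with single arrays left out. Between the HG-PIN groups, 0 became 4 on the 6 arrays compared, 7 with the range term and 9 with array weights, and 0 to 6 with single arrays left out. The filter at the background gauge left out Ctla2b and Ctsk, and Ctla2b also failed the low-signal limit after quantile normalization. Differences against signals near background are uncertain in size.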
